A study of Homo sapiens with 2 samples.

Results

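The hnRNPs (heterogeneous nuclear ribonucleoproteins) and related RNA-binding proteins were examined on the arrays of GAS2DN and Venus transduced MEG-01 cells. The members were 34 genes taken by name, the HNRNP genes with close relatives and partners in RNA binding, out of 19775 genes with a probe set of their own on the array. Older annotation writes HNRNPDL as HNRPDL, and symbols were matched through the gene identifier. Of the 34 members, 33 had at least 1 probe set assigned to them alone. HNRNPH2 was matched only by a probe set shared with another gene and has no value.

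MEG-01 is a megakaryoblastic cell line from chronic myeloid leukemia (CML). GAS2DN is a truncated, dominant negative form of growth arrest specific 2 (GAS2), delivered by a lentiviral vector whose transgene is driven by the spleen focus forming virus promoter. Both the GAS2DN cells and the Venus cells, transduced with the control lentivirus, were sorted, and RNA of 3 extracts per condition was pooled and hybridised to 1 array. The arrays were made to find transcripts that differ upon GAS2DN. HNRNPDL was among the genes the study chose from them, after a comparison with public array data of CML cells. Its direction and size here are therefore no independent evidence. The study also measured HNRNPDL by quantitative RT-PCR and reported it lower upon GAS2DN in MEG-01, K562 and primary CML cells. By western blot it reported less of both protein isoforms in K562 cells. Since each condition had a single array, no replicate check or test was possible, which limits the precision of each value.

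hnRNPs bind nascent transcripts as they leave RNA polymerase. Through RNA recognition motifs or KH domains they influence splicing, export, stability and translation of mRNA. In CML cells the poly(C)-binding hnRNPs are known for control of the translation of differentiation factors, and in the hnRNP D subfamily HNRNPD (AUF1), a relative of HNRNPDL and HNRNPAB, binds AU-rich elements that govern mRNA decay. Many members have near-identical copies in the genome, so a probe set may also bind transcripts of a pseudogene or a relative. On these arrays the ending _s_at marks probes that match several transcripts, and _x_at marks probes that may bind similar sequences of other genes. Which transcripts each probe set binds was not tested.

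Signals are MAS5 values on a linear scale, and each ratio is the GAS2DN signal over the Venus signal, given as a log2 ratio. A probe set counted as eligible if at least its brighter signal reached the median of the array it came from, 69.1 for GAS2DN and 55.6 for Venus. The main probe set of a gene had the highest mean log2 signal, leaving out _x_at where the gene had another, and a gene is called measured where that probe set was eligible. Only 1 probe set read GAS2, 205848_at, with 34.7 in GAS2DN cells and 24.3 in Venus cells, both below the median, and its place relative to the truncated part is not given in the sources used here. ITGA2B, the megakaryocyte integrin subunit, had 9238 in GAS2DN cells and 7149 in Venus cells, and 9 of 14 megakaryocytic markers were measured. Of these, 7 were above 0 and 2 below, with a median log2 ratio of 0.37, beside 0.06 over all measured genes. Over all 18 eligible probe sets of the megakaryocytic markers, 6 were below 0 and the median was 0.16. The measured markers included NFE2, with 4295 in GAS2DN and 2975 in Venus cells (0.53), and FLI1, with 6806 and 10408 (-0.61), both transcription factors. The FLI1 value is that of its main probe set, and its other eligible probe sets had -0.68, -0.11, -0.03 and -0.0020. The part of these differences in the members' ratios was not tested. Summed over the main probe sets of all listed markers with one, eligible or not, megakaryocytic signals were 25063 in GAS2DN and 24732 in Venus cells. PF4, PPBP and VWF lay below the array median in both. Above it in both were GP1BA, with 1196 in GAS2DN and 1113 in Venus cells, and GP9, with 546 and 469. The same held for SELP, with 752 in GAS2DN and 508 in Venus cells, TUBB1, with 466 and 304, and ITGB3, with 162 and 88.5. Summed in the same way, lymphoid markers had 336 in GAS2DN cells and 250 in Venus cells, and fibroblast markers 235 and 197. Only 2 of 5 lymphoid markers were measured, CD79A with 185 in GAS2DN and 159 in Venus cells and MS4A1 with 71.1 and 47.2. Only 1 of 5 fibroblast markers was measured, COL1A2 with 111 in GAS2DN and 41.0 in Venus cells. Eligible probe sets ending in _x_at, left out of this count and of the sums, also read COL1A1 and DCN. They had 402 in GAS2DN and 284 in Venus cells for COL1A1, and 131 and 58.6, and 109 and 56.0, for DCN. The 3' to 5' control ratio was 1.02 in GAS2DN and 1.01 in Venus for GAPDH, and 2.17 in GAS2DN and 2.32 in Venus for ACTB.

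HNRNPDL, HNRNPD and HNRNPAB form the D subfamily, and HNRNPDL and HNRNPD are also near neighbours. Both lie on chromosome 4, with 3 annotated genes between them in the RefSeq annotation, a long non-coding RNA (HNRNPD-DT), a pseudogene (IGBP1P4) and a small nucleolar RNA. The 250 bases before the annotated start of each are shown from RefSeq (GRCh38.p14), because these 3 genes carried the lowest group of ratios among the roles compared. Capitals mark the GC box GGGCGG, the CCAAT box, the TATA box TATAAA and the ETS motif CCGGAAG, on either strand, so that CCGCCC is a GC box on the other strand. The HNRNPDL sequence is chr4:82430226-82430475, minus strand. The HNRNPD sequence is chr4:82373992-82374241, minus strand. The HNRNPAB sequence is chr5:178204283-178204532, plus strand.
HNRNPDL: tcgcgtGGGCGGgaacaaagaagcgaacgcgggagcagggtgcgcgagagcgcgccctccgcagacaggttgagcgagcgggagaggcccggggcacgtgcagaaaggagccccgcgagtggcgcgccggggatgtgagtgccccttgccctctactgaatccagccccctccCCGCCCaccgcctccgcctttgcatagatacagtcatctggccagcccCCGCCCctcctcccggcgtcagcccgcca
HNRNPD: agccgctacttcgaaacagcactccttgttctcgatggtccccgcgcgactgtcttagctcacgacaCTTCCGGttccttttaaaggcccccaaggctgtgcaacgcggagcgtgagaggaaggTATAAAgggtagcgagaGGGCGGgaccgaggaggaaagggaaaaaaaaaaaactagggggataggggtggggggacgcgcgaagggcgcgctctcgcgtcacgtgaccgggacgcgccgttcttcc
HNRNPAB: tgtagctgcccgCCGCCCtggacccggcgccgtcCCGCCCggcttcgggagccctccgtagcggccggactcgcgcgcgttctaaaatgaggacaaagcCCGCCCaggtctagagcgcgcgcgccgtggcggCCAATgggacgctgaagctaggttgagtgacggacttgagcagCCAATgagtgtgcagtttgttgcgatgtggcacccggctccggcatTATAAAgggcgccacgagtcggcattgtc
HNRNPDL had GC boxes only, HNRNPD had a GC box, a TATA box and an ETS motif, and HNRNPAB had GC boxes, CCAAT boxes and a TATA box, so no arrangement was common to the subfamily beyond the GC box. Over the 300 bases from 250 before to 50 after the start, 30 of the 34 members had a sequence, the others being HNRNPA1, TAF15, ELAVL1 and FUBP1. A GC box was present in 24 of these 30 (80.0%), against 44.6% of all 27305 promoters, and a CCAAT box in 16 (53.3%), against 35.7%. TATAAA was found in 5 (16.7%), against 12.0%, and CCGGAAG in 4 (13.3%), against 10.7%. AAGATGGC, the YY1 motif, was found in 0 of 30, against 3.03%. The median GC content was 65.7% for the members and 58.3% for all promoters. No motif overlaps were resolved, and a match in letters is a description of the window, not of a bound site.

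HNRNPDL, an hnRNP D relative that binds AU-rich RNA, was read by 5 eligible probe sets, and all 5 were lower in GAS2DN cells than in Venus cells. Its main probe set, 209067_s_at, had a signal of 11156 in GAS2DN cells and 13438 in Venus cells, a log2 ratio of -0.27. The probe set 1554678_s_at had 6839 in GAS2DN cells and 8659 in Venus cells (-0.34). These differences were under 1.5-fold. The probe set without a suffix for shared probes, 209068_at, had 2115 in GAS2DN cells and 2679 in Venus cells (-0.34), and 212454_x_at had 2777 and 3577 (-0.37). In contrast, the other probe set ending in _x_at had 5543 in GAS2DN cells and 17612 in Venus cells, a ratio of 0.315 and a log2 ratio of -1.67. This probe set alone crossed 3-fold, the size the study used, while the other 4 lay between -0.27 and -0.37. Another, 214379_at, was dim on both arrays with 36.4 in GAS2DN and 13.9 in Venus cells, and was not eligible. In bulk RNA, fewer cells with a transcript and less of it per cell cannot be told apart.

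HNRNPD, the AU-rich element binding protein AUF1, showed 4 of 6 eligible probe sets below 0. Its main probe set 209330_s_at had 14269 in GAS2DN cells and 17696 in Venus cells (-0.31), and 200073_s_at had 13100 and 18176 (-0.47). The probe sets 221480_at, with 1934 in GAS2DN and 3076 in Venus cells (-0.67), and 229129_at, with 908 and 1506 (-0.73), had lower ratios. On the other side of 0 were 221481_x_at, with 14533 in GAS2DN cells and 13941 in Venus cells (0.06), and 213359_at, with 1155 and 855 (0.43). The probe sets of HNRNPD thus did not share a direction, and none passed 2-fold. Another 3 were dim and not eligible, 239040_at with 19.8 in GAS2DN and 34.9 in Venus cells, 227744_s_at with 7.57 and 32.8, and 205183_at with 4.20 and 6.78. HNRNPAB, which binds RNA and single-stranded DNA, had a single probe set, 201277_s_at, with 19143 in GAS2DN cells and 23878 in Venus cells (-0.32).

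**Figure D1:**
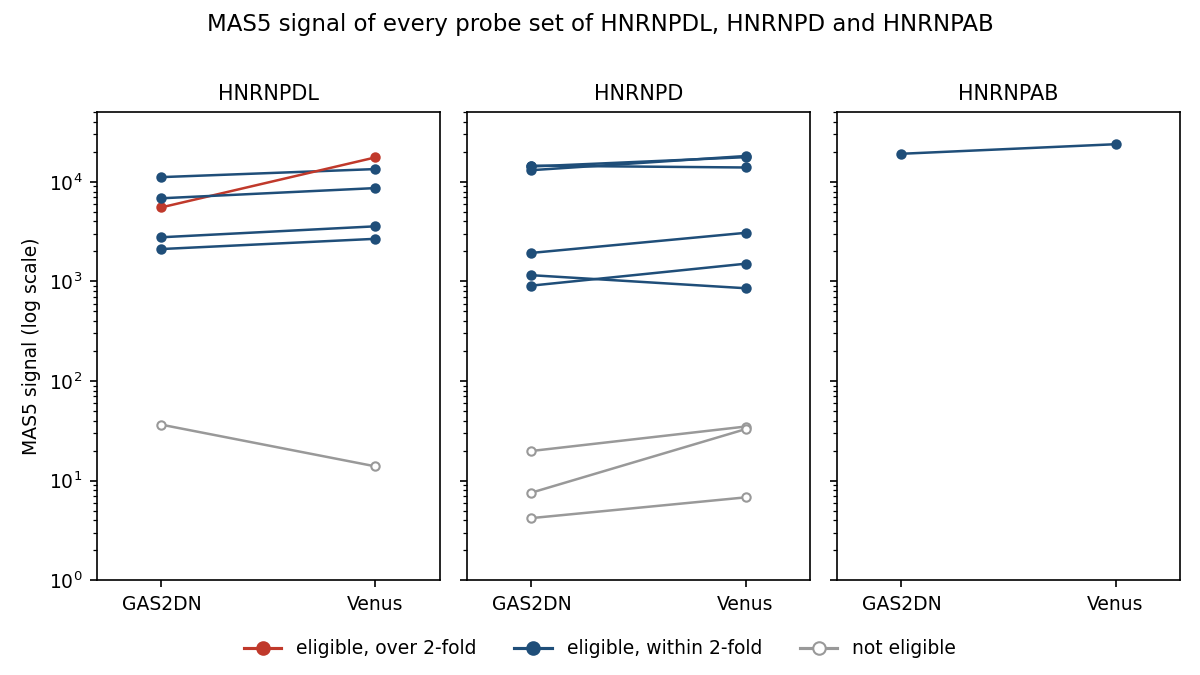
MAS5 signal (log axis) of every probe set of HNRNPDL, HNRNPD and HNRNPAB in GAS2DN cells (left) and Venus cells (right), with 1 line per probe set and no error since each condition had 1 array. The red line, of the second HNRNPDL probe set ending in _x_at, runs between 5543 in GAS2DN and 17612 in Venus cells, crossing lines of other HNRNPDL probe sets, while the lines of the other eligible HNRNPDL probe sets have about the same slope.

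Together the 3 D genes had 10 of 12 eligible probe sets below 0 and a median of -0.34 over them. Their main probe sets lay close to each other, at -0.27, -0.31 and -0.32. Over all genes, 46.3% of eligible probe sets without a suffix, 45.3% ending in _s_at and 39.6% ending in _x_at were below 0. The other role groups had medians over eligible probe sets from -0.22 for HNRNPC with RALY to 0.10 for HNRNPL with PTBP1. Probe sets of the same gene were the only repeated measure. All of them read the same pooled RNAs, so their spread reflects differences between probe sets, not between arrays or cultures. All probe sets were divided into 10 equal bins by signal. Each log2 ratio was compared with the mean over all eligible probe sets of its gene, whatever their bin. The SD from these deviations was 0.46 in the brightest bin, 1.61 in the fifth from the dimmest and 2.54 in the fourth. Dimmer probe sets of the same gene thus also enter the value of the brightest bin. The 3 main ratios of the D genes are smaller in size than the SD of the brightest bin, and that of the lowest HNRNPDL probe set is larger. This SD cannot tell whether any of them differs between conditions.

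Among all members, the main probe set was eligible for 32 of 33, and all 32 were within 1.5-fold. The log2 ratios ran from -0.53 (FUBP1) to 0.25 (PCBP1), with a median of -0.06, beside a median of 0.06 over 13086 measured genes. Below 0 were 21 of the 32 (65.6%), beside 43.8% of all measured genes. Both are descriptions of these 2 arrays, with no test. Of the main probe sets, 31 were in the brightest bin, with 20 below 0 and a median of -0.06, beside 43.5% below 0 and a median of 0.04 over the 3503 genes there. Only the main probe set of PTBP1, 236819_at, was not eligible, with 10.4 in GAS2DN and 5.20 in Venus cells.

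Over all 131 probe sets of the members, 118 were eligible, 67 of them below 0 and 51 above, with a median of -0.07. The 13 that were not eligible belonged to HNRNPD (3), HNRNPM (2), PTBP1 (2) and, with 1 each, HNRNPC, HNRNPDL, MSI2, TAF15, TIA1 and TIAL1. Among 28 members with at least 2 eligible probe sets, 5 had all of them below 0, namely HNRNPA0, HNRNPDL, HNRNPH1, HNRNPUL1 and TIAL1, 3 had all above 0, namely HNRNPL, HNRNPUL2 and PTBP1, and 20 had both signs. The same split was not counted over all genes, so it is a description of the members only. When ratios were centred, the main probe sets of HNRNPL and HNRNPUL2 fell just below 0, at -0.0095 and -0.0079. By kind of probe set, 55 without a suffix had a median of -0.12 (all genes 0.04), 49 ending in _s_at had -0.07 (all genes 0.04) and 13 ending in _x_at had 0.10 (all genes 0.11). Below 0 were 32 of the 55, beside 46.3% over all genes, 30 of the 49, beside 45.3%, and 5 of the 13, beside 39.6%.

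**Figure D2:**
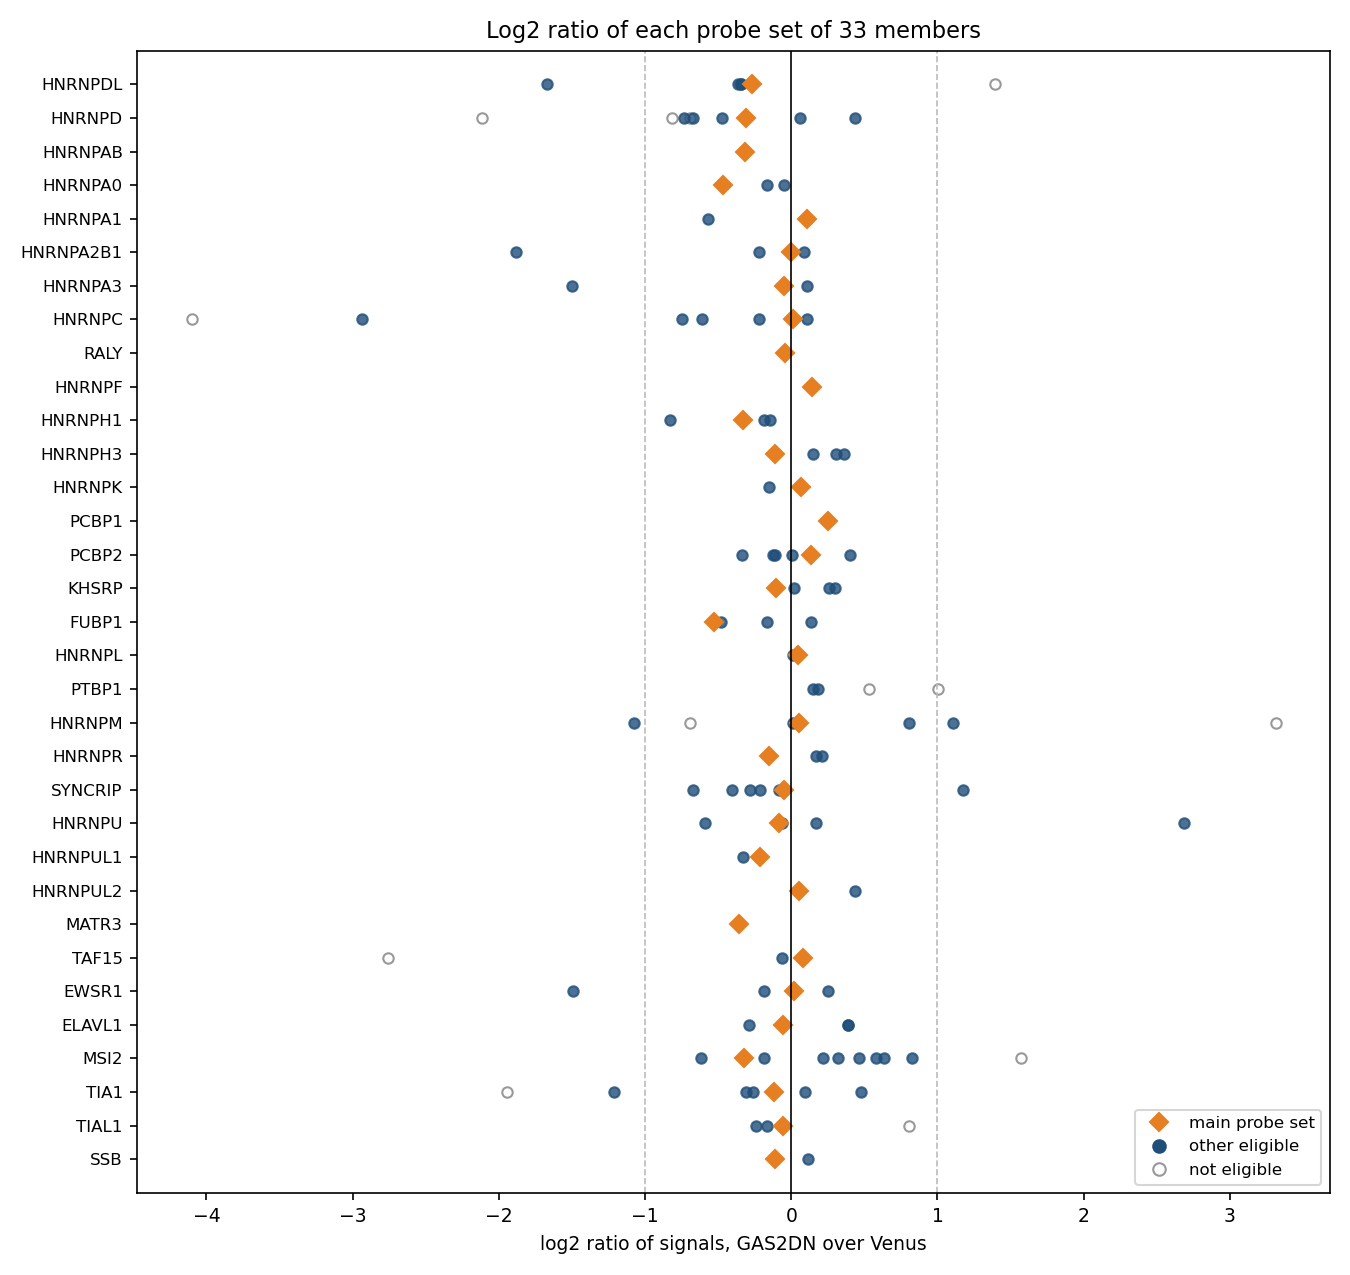
Log2 ratio of signals, GAS2DN over Venus (x axis), for each probe set of the 33 members with one (y axis, ordered by role), with diamonds for eligible main probe sets, filled circles for other eligible ones and open circles for those not eligible, and dashed lines at 2-fold. The diamonds lie between -0.53 and 0.25, while single probe sets of HNRNPC and HNRNPU reach -2.93 and 2.69.

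By size, 7 of the 118 eligible probe sets were over 2-fold lower (5.93%, beside 6.07% of all eligible probe sets of 1 gene) and 3 over 2-fold higher (2.54%, beside 8.51%). Over 3-fold, 3 were lower (2.54%, beside 3.36%) and 1 was higher (0.847%, beside 4.96%). The share of lower probe sets was thus near that of all genes. Where both signals reached the median, 4 of 112 were over 2-fold lower (3.57%, beside 1.61%) and 2 over 2-fold higher (1.79%, beside 1.75%). In the brightest bin, which held 66 of the members' probe sets, 2 were over 2-fold lower (3.03%, beside 0.686%, 33 of 4810), those of HNRNPA3 and HNRNPDL, and none was higher. That of HNRNPDL was 1 of 6 among the 4810 over 3-fold lower there (1.52% of the members', beside 0.125%). The study chose HNRNPDL from genes over 3-fold on these same arrays, narrowed by their overlap with public array data of CML CD34+ cells. Counts of lower probe sets that include it are therefore no independent evidence.

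**Figure D3:**
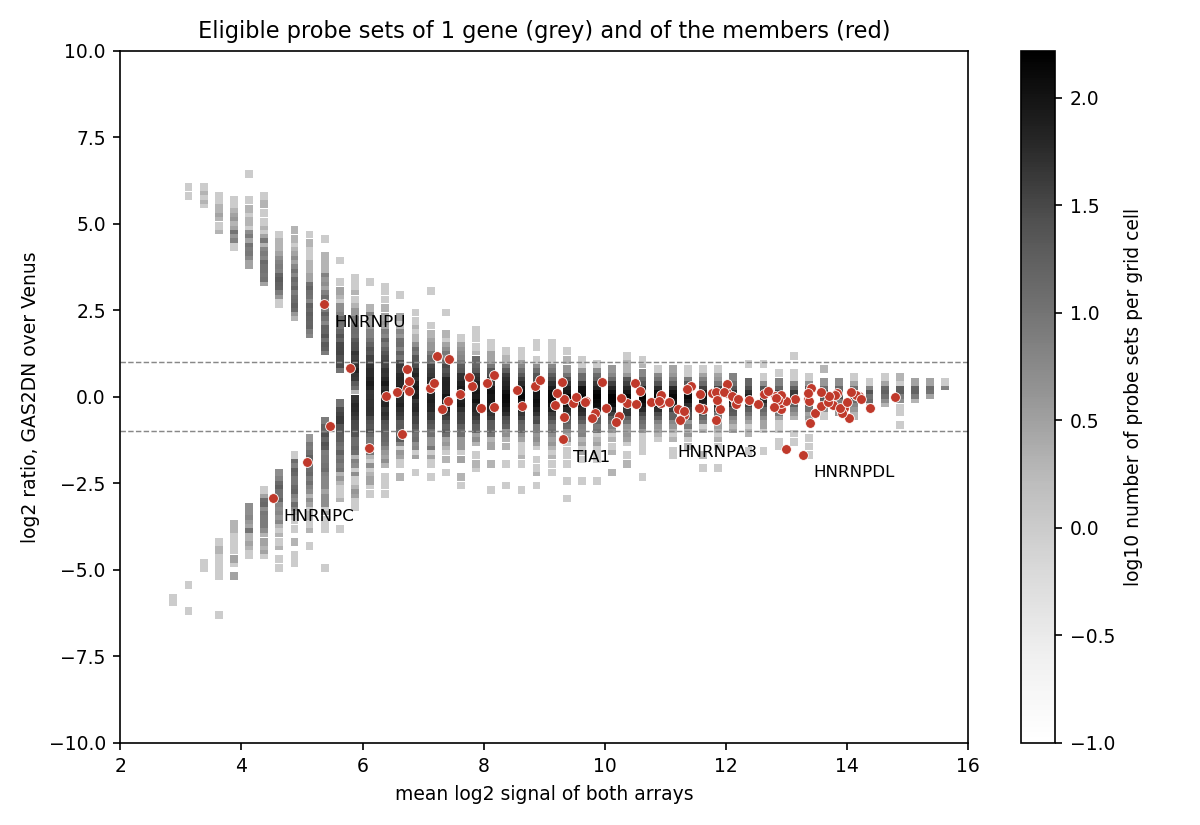
Log2 ratio, GAS2DN over Venus (y axis), against the mean log2 signal of both arrays (x axis) for eligible probe sets of 1 gene, as grey grid cells shaded by the log10 number of probe sets, with the 118 of the members in red and dashed lines at 2-fold. Ratios spread widely at low signals, where HNRNPC and HNRNPU lie at -2.93 and 2.69, and HNRNPA3 at -1.50 and HNRNPDL at -1.67 stand below the bulk at high signals.

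The hnRNP A/B proteins package nascent RNA and repress exons, with HNRNPA1 and HNRNPA2B1 also shuttling between nucleus and cytoplasm. HNRNPA0, which binds AU-rich mRNA, was lower in all 3 probe sets, with 9728 in GAS2DN and 13457 in Venus cells for 201054_at (-0.47), 4432 and 4581 for 201055_s_at (-0.05) and 1241 and 1393 for 229083_at (-0.17). HNRNPA3 had 3 bright probe sets that did not share a direction. Its 211929_at had 4860 in GAS2DN and 13725 in Venus cells (-1.50), while 211932_at had 8906 and 9237 (-0.05) and 211930_at had 4310 and 4003 (0.11). The 3 bright probe sets of HNRNPA2B1 were within 1.5-fold, as 205292_s_at had 28444 in GAS2DN and 28478 in Venus cells (-0.0017), 225932_s_at 6530 and 6137 (0.09) and 225107_at 1351 and 1572 (-0.22). Its dim probe set, 244131_at, had 17.7 in GAS2DN cells, below the median, and 65.0 in Venus cells (-1.88). HNRNPA1 had 0.10 and 0.11 in 2 probe sets and -0.57 in the other.

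HNRNPC, which binds uridine tracts and sorts transcripts for export, was split among its probe sets. The main one, 200751_s_at, had 18884 in GAS2DN and 18737 in Venus cells (0.01), and 227110_at had 3645 and 3389 (0.11). The others were lower, with 13653 in GAS2DN and 20870 in Venus cells for 214737_x_at (-0.61), 8285 and 13889 for 212626_x_at (-0.75) and 12910 and 15073 for 200014_s_at (-0.22). The sign of HNRNPC therefore depended on the probe set, and its median over eligible probe sets was -0.42. The dim 235500_at had 8.32 in GAS2DN and 63.5 in Venus cells (-2.93), and 1568941_a_at, with 2.34 and 40.2, was not eligible. RALY, its relative, had -0.04 in its single probe set.

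HNRNPH1, HNRNPH3 and HNRNPF bind G-rich tracts near splice sites. HNRNPH1 was below 0 in all 4 eligible probe sets, with -0.33 in the main one and -0.19 and -0.15 in the next brightest. Its dim 213472_at had 32.9 in GAS2DN cells, below the median, and 58.5 in Venus cells (-0.83). HNRNPF had the second highest main ratio of the members, with 3850 in GAS2DN cells and 3486 in Venus cells for 201376_s_at (0.14). HNRNPH3 had -0.11 in the main probe set and 0.15 to 0.36 in the other 3, so its sign also depended on the probe set.

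Among the KH domain proteins, PCBP1 and PCBP2 (hnRNP E1 and E2) bind poly(C) tracts and HNRNPK does so as well. PCBP1 had the highest main ratio, with 11939 in GAS2DN and 10008 in Venus cells for 208620_at (0.25). PCBP2 had 18052 in GAS2DN and 16403 in Venus cells for 204031_s_at (0.14), while its other 5 probe sets ran from -0.34 to 0.40. HNRNPK had 0.06 in one probe set and -0.16 in the other. FUBP1, the far upstream element binding protein of MYC, had the lowest main ratio of the members, with 2103 in GAS2DN and 3035 in Venus cells for 203091_at (-0.53). Its other eligible probe sets had -0.48 (773 in GAS2DN and 1080 in Venus cells), -0.16 (2032 and 2276) and 0.13 (99.0 and 90.3). KHSRP, a decay factor for AU-rich mRNA, had -0.11 in the main probe set and 0.02 to 0.30 in the others.

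The remaining splicing regulators had probe sets over 2-fold in either direction only at low or middle signals. HNRNPL and PTBP1, repressors that bind CA and pyrimidine tracts, stayed between 0.01 and 0.18 in eligible probe sets, and 211270_x_at of PTBP1 had 12856 in GAS2DN cells and 11573 in Venus cells (0.15). HNRNPM, a GU-rich RNA binder, had bright probe sets near 0, with 18611 in GAS2DN and 17898 in Venus cells for 1555844_s_at (0.06) and 13388 and 13274 for 200072_s_at (0.01). Its weaker ones went both ways, with 254 in GAS2DN and 118 in Venus cells for 233605_x_at (1.10), 140 and 80.3 for 1555843_at (0.81) and 69.6 and 147 for 214918_at (-1.08). Not eligible were 234035_at, with 43.8 in GAS2DN and 4.41 in Venus cells, and 1556084_at, with 9.70 and 15.7. MATR3, a nuclear matrix protein, had 3393 in GAS2DN and 4348 in Venus cells for 242260_at (-0.36), the third lowest main ratio, from its single probe set.

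SYNCRIP (hnRNP Q) and HNRNPR are close relatives in mRNA transport and stability. SYNCRIP was below 0 in 6 of 7 eligible probe sets. Its main one, 209024_s_at, had 7186 in GAS2DN and 7421 in Venus cells (-0.05), and the lowest, 217832_at, had 2896 and 4605 (-0.67). The other 4 below 0 were 209025_s_at, with 6446 in GAS2DN and 7839 in Venus cells (-0.28), 217834_s_at, with 4275 and 4958 (-0.21), 217833_at, with 3612 and 3819 (-0.08), and 1555427_s_at, with 2194 and 2911 (-0.41). All 6 were within 2-fold. The weaker 236146_at had 226 in GAS2DN and 99.9 in Venus cells (1.18). HNRNPR had -0.15 in the main probe set and 0.17 and 0.21 in the others.

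HNRNPU, the scaffold attachment factor that binds RNA and chromatin, had 7222 in GAS2DN and 7664 in Venus cells for 200593_s_at (-0.09) and 18885 and 19767 for 200594_x_at (-0.07). The 225805_at of HNRNPU had 1630 in GAS2DN and 1447 in Venus cells (0.17), and 235603_at had 525 and 791 (-0.59). These lay on both sides of 0. The dim 216855_s_at had 105 in GAS2DN and 16.2 in Venus cells (2.69), the only eligible probe set of the members over 3-fold higher. HNRNPUL1 had -0.22 and -0.33, and HNRNPUL2 had 0.05 and 0.44. EWSR1, of the FET family, had 7224 in GAS2DN and 7127 in Venus cells for 209214_s_at (0.02) and 1827 and 2077 for 210011_s_at (-0.19). The weaker 229966_at had 151 in GAS2DN and 127 in Venus cells (0.25), and 210012_s_at had 41.0 and 115 (-1.49). TAF15, of the same family, lay between -0.07 and 0.08.

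The proteins of mRNA stability and translation, ELAVL1 (HuR), MSI2, TIA1, TIAL1 and SSB (La), all had main ratios below 0, between -0.06 and -0.32. Over all measured genes 43.8% were below 0. Of the 24 eligible probe sets of these proteins 13 were below 0. TIA1, a stress granule protein that also regulates splicing, had 418 in GAS2DN and 967 in Venus cells for 201450_s_at (-1.21), and was the only member over 2-fold in the bin next to the brightest. Its other eligible probe sets were 201448_at, with 1832 in GAS2DN and 1990 in Venus cells (-0.12), 201449_at, with 934 and 1160 (-0.31), 201447_at, with 362 and 434 (-0.26), 1554890_a_at, with 615 and 575 (0.10), and 201446_s_at, with 576 and 414 (0.47). They lay on both sides of 0, and 1554889_at, with 10.7 in GAS2DN and 41.4 in Venus cells, was not eligible. TIAL1, its relative, was below 0 in all 3 eligible probe sets, from -0.06 to -0.24. MSI2, a translational regulator of hematopoietic stem cells and blast crisis CML, had -0.32 in the main probe set. Of its 9 eligible probe sets 6 were above 0, and the median over the 9 was 0.32. Its next brightest were 225240_s_at, with 2839 in GAS2DN and 2441 in Venus cells (0.22), 225237_s_at, with 718 and 1103 (-0.62), and 243579_at, with 670 and 764 (-0.19). The others above 0 were weaker, at most 359 in GAS2DN cells. The highest ratio, 0.83, was that of 225233_at, with 73.8 in GAS2DN and 41.6 in Venus cells, the latter below the median. ELAVL1 had 2 eligible probe sets on each side of 0, and SSB had 1 on each side.

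**Figure D4:**
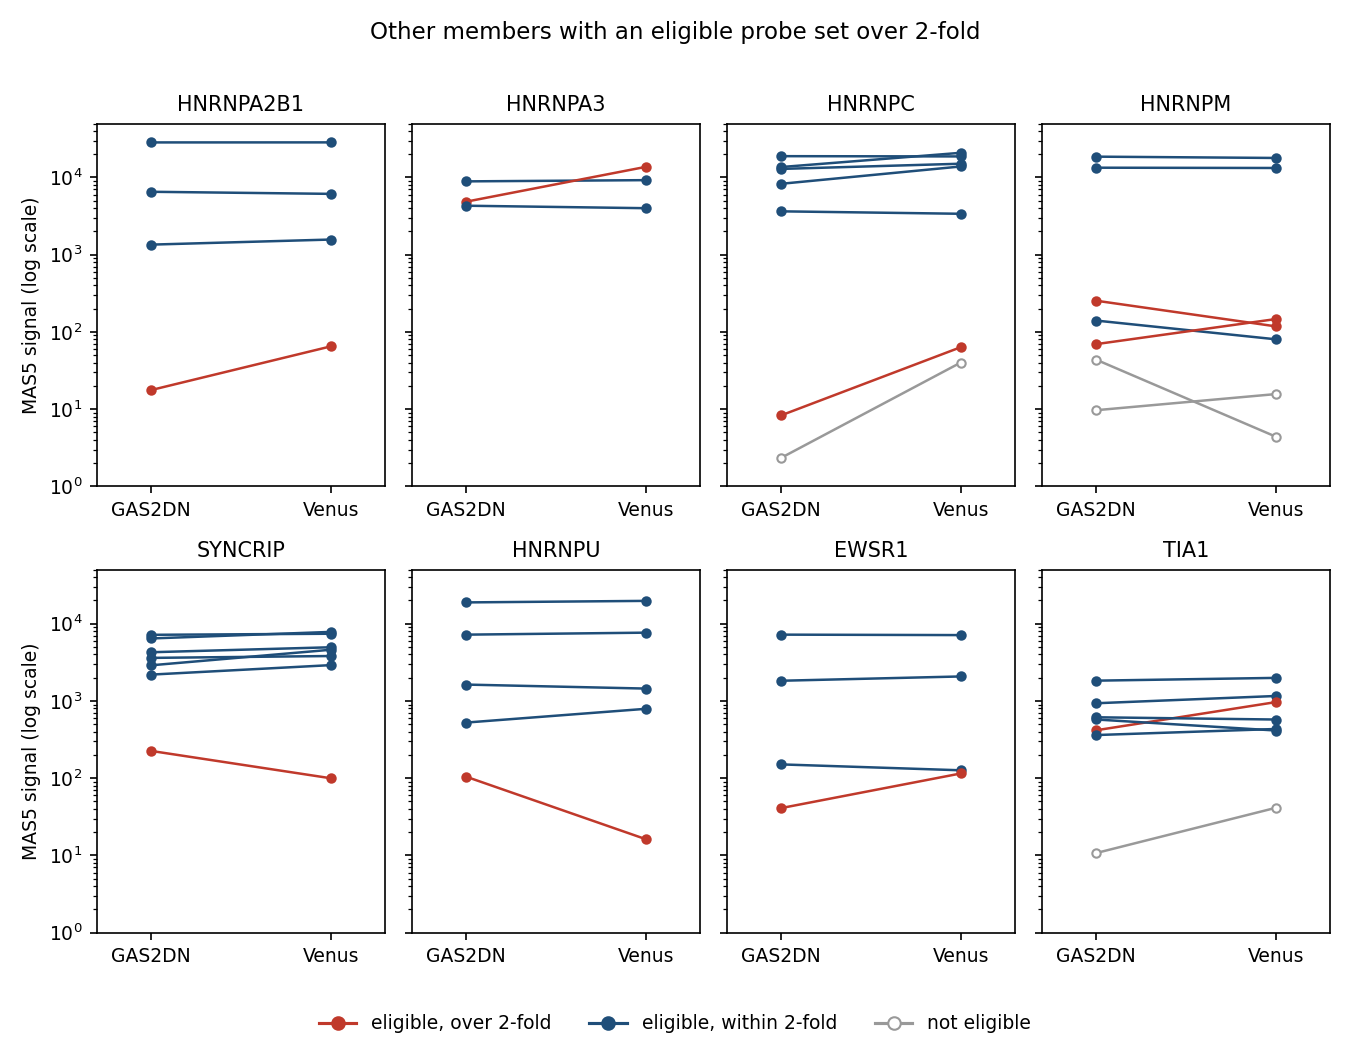
MAS5 signal (log axis) of every probe set of the 8 other members with an eligible probe set over 2-fold, in GAS2DN cells (left) and Venus cells (right), with 1 line per probe set and red lines for those over 2-fold. The red line of HNRNPA3 lies among bright signals, at 4860 in GAS2DN and 13725 in Venus cells, and that of TIA1 at 418 and 967, whereas the others run below those signals.

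The SR proteins, which mostly promote exon inclusion where hnRNPs repress it, were set beside the members. Of 14 genes 11 were measured, 6 of them below 0, with a median of -0.03. Of their 46 eligible probe sets, 22 were below 0, 0 were over 2-fold lower and 2 were over 2-fold higher. The difference from the members was not tested. Another list of 32 RNA-binding proteins of the same families or complexes had 25 measured, 11 below 0, with a median of 0.07. Of 92 eligible probe sets on that list, 42 were below 0, 3 were over 2-fold lower and 10 over 2-fold higher. For both lists, the shares over all eligible probe sets of 1 gene were 6.07% over 2-fold lower and 8.51% over 2-fold higher. Of all measured genes, 43.8% were below 0.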

How the data were processed

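The authors deposited log2 MAS5 signals of 2 Human Genome U133 Plus 2.0 arrays, 1 per condition, each hybridised with equal amounts of RNA pooled from 3 extracts. The submitters' notes name MAS5 with no version, and its scaling and background steps make low signals imprecise. The values come without detection calls.

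Values were turned into linear signals and ratios of GAS2DN over Venus. Of 54675 probe sets, 62 were controls, 41091 had 1 gene in the platform's table, 1801 several and 11721 none. Only those with 1 gene were used, and 21 shared probe sets that include a member were left out. Current symbols replaced the annotated ones by Entrez identifier for 41037 probe sets, while 54 kept theirs. Eligible were 30304 probe sets in all, of which 24840 had 1 gene.

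The text gives both signals for every probe set of HNRNPDL, HNRNPD and HNRNPAB, for every probe set of the other members with an eligible one over 2-fold, and for the main probe set of the 3 highest and 3 lowest members. Further values were added after they were seen. The members, lists and thresholds were chosen with earlier results of these data known. Other settings tried were different filters for weak signal, ratios centred on their median, quantile normalization, a loess curve (span 0.2, iterations 3), other choices of probe set per gene, and low signals raised or offset. No test was possible. The steps were tested on simulated data. The software was matplotlib 3.10.9, statsmodels 0.14.6, scipy 1.17.1, pandas 2.3.3 and numpy 2.4.6 under Python 3.11.15.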

Additional observations from a re-analysis of the deposited data

How the results depend on the processing

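The median log2 ratio of the members stayed below 0 under all 10 alternatives, from -0.05 to -0.12, while that of all genes ran from 0.09 to -0.0015. Not all alternatives could move it. It was -0.0575, as in the main setting, with both signals required to reach the median, at percentile 75 and with low signals raised. These settings act on weak signals, whereas the measured main probe sets of the members are bright. Members below 0 numbered 26 of 32 after centring, 25 after loess and 24 after quantile normalization, against 21 in the main setting. By the median over eligible probe sets 19 of 33 were below 0, and 15 of 25 without _s_at and _x_at probe sets. Of all genes, 43.8% were below 0 in the main setting, 50.2% after centring, 46.3% after loess and 45.2% after quantile normalization. The share of all genes was 44.0% by the median over eligible probe sets and 45.2% without _s_at and _x_at probe sets. Centring thus lowered all genes as well as the members. Over the settings 18 members kept their sign (14 below 0, 4 above) and 14 did not: HNRNPC, HNRNPH3, HNRNPK, HNRNPL, HNRNPM, HNRNPR, HNRNPU, HNRNPUL2, PCBP2, EWSR1, SSB, ELAVL1, MSI2 and KHSRP. HNRNPM had 0.81 without _s_at and _x_at probe sets.

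The counts by size depended on dim probe sets. Probe sets over 2-fold lower were 7, against 11 with no filter, 4 with both signals required to reach the median, 3 with the brighter at or above percentile 75, 4 without _s_at and _x_at, 4 with low signals raised to the median and 3 with the median added. Those over 2-fold higher were 3, against 7 with no filter, 0 at percentile 75, 1 without _s_at and _x_at and 1 with the median added. Those over 3-fold lower were 3, against 7 with no filter and 1 with both signals required, at percentile 75, with low signals raised or with the median added. The 1 over 3-fold higher became 2 with no filter and 0 under each of the other 5 filters or treatments named. Over all genes, 1509 probe sets were over 2-fold lower and 2113 higher, against 1876 lower and 1694 higher after loess and 1901 and 1683 after quantile normalization. No paired analysis was possible because each condition had 1 array, and for the same reason no array could be left out.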
